A study of Mus musculus with 8 samples.

Results

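The Kruppel-like factors (KLFs) are zinc finger transcription factors, and 10 of their genes (*Klf2*, *Klf3*, *Klf4*, *Klf6*, *Klf7*, *Klf9*, *Klf10*, *Klf11*, *Klf13* and *Klf16*) were followed by name through a table of 12823 genes counted in mouse acute myeloid leukemia (AML) cells. All 10 were in the table and all 10 had enough reads to be tested, as did 12494 genes in all. The leukemia was made by transducing mouse bone marrow progenitor cells with a retrovirus (pMSCV-MLL-AF9-pgk-EGFP) that carries the MLL-AF9 fusion gene and GFP, and by transplanting them into sublethally irradiated wild-type C57BL/6 mice. New AML was the GFP+ cells taken at that stage, about 2 months after transplantation. Aggressive AML is described as grown from the remaining GFP+ cells by 5 serial transplantations, through non-irradiated recipients. Each group had 4 bone marrow samples, described by the study as biological replicates from male mice. Both groups carry MLL-AF9 and no drug was given. Recipients were 8 to 12 weeks old when used. Each group is described as 1 line of transduced cells, so the spread between replicates is a spread between samples of 1 leukemia, and serial passage cannot be told apart from clonal history or recipient irradiation. Summed counts of 4 Y-linked genes (*Ddx3y*, *Eif2s3y*, *Kdm5d*, *Uty*) were 2315 to 2574 per library in new AML and 0 in every aggressive AML library. These counts divide the libraries exactly as the groups do, although aggressive AML is described as grown from the remaining GFP+ cells. Descent of aggressive AML from the new AML cells was not tested here. The part of this difference in the results cannot be told apart from that of the group.

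KLFs bind CACCC boxes and GC boxes in DNA through 3 zinc fingers at the end of the protein, and differ mostly in what they recruit. KLF3 recruits the CtBP co-repressors. KLF2, KLF4, KLF6 and KLF7 act largely as activators, and KLF9, KLF10, KLF11, KLF13 and KLF16 recruit the Sin3 co-repressor complex. In blood cells KLF4 is known for driving monocyte differentiation, and KLF2 for keeping lymphocytes and macrophages quiescent.

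The promoters of the genes that were called between the groups are shown first, because KLF genes carry in their own promoters the boxes that KLF proteins bind. A promoter of 300 bases (250 before and 50 after the start) was listed in RefSeq (GRCm38.p6, the assembly that mm10 names) for 8 of the 10 genes, and *Klf10* and *Klf16* had no entry. In the following sequences, 5′ to 3′ on the strand of the gene, capitals mark CACCC boxes (CACCC or its complement GGGTG) and GC boxes (GGGCGG or its complement CCGCCC).
Klf3 (chr5:64803271-64803570, plus strand): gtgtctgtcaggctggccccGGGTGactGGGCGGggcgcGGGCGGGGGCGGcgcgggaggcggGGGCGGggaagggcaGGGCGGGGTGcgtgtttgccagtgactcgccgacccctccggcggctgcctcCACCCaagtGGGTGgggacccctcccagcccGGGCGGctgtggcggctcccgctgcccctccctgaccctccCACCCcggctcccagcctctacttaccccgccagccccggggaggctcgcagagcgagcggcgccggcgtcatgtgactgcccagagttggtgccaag
Klf4 (chr4:55532426-55532725, minus strand): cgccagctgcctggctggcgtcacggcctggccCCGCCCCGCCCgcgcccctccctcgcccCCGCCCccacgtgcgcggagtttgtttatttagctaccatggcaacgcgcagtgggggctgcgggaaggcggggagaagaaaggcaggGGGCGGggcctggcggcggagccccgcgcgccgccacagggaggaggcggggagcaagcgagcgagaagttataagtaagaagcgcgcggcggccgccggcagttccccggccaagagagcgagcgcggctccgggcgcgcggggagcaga
Klf9 (chr19:23140976-23141275, plus strand): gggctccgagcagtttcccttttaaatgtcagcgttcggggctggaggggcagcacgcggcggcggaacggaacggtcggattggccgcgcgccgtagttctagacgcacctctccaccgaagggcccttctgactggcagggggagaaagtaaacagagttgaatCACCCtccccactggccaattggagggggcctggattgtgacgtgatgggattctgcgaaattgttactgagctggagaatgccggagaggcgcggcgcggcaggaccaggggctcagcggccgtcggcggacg
Klf11 (chr12:24651121-24651420, plus strand): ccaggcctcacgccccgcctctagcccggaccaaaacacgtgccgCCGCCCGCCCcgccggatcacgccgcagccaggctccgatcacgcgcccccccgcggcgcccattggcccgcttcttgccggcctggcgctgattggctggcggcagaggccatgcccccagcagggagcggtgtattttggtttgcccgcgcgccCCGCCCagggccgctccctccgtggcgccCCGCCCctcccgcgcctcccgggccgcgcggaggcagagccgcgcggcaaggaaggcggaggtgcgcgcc
*Klf3* held 5 CACCC boxes and 6 GC boxes, with 1 pair of a CACCC box and a GC box that overlapped. *Klf4* and *Klf11* each held 4 GC boxes and no CACCC box, and *Klf9* held 1 CACCC box and no GC box. Of all 32851 listed promoters of this length, 57.5% held a CACCC box and 35.7% a GC box. Among the 9690 promoters with at least 60% G and C, these shares were 70.1% and 80.6%. The promoters of *Klf3*, *Klf4* and *Klf11* were 76.7%, 74.3% and 77.7% G and C and that of *Klf9* was 63.3%, against a median of 52.7% over all promoters. Boxes of these short sequences are thus common in promoters of such composition, and a match is not a binding site.

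*Klf2*, the most variable member, is shown for another reason. Its promoter is known to be switched on through MEF2 factors, and capitals here mark the MEF2 site.
Klf2 (chr8:72318812-72319111, plus strand): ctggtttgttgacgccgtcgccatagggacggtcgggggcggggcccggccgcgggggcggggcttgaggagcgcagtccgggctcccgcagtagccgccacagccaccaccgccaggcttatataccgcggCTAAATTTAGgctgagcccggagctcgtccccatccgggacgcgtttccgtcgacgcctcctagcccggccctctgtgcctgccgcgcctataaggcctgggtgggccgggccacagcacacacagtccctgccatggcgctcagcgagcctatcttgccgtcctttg
The site lay 118 to 109 bases before the start. A MEF2 site was searched on both strands as YTAWWWWTAR, where Y is C or T, W is A or T and R is A or G. It was present in 3.19% of all promoters and in 0.588% of the promoters with at least 60% G and C. None of the other 7 listed KLF promoters held it. The *Klf2* promoter also held 1 CACCC box and 2 GC boxes.

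KLF genes moved in both directions. In aggressive AML 2 of the 10 were higher (*Klf9*, *Klf11*), 2 were lower (*Klf3*, *Klf4*), and 6 did not pass the test. Passing meant an adjusted p under 0.05 in edgeR's quasi-likelihood test, with Benjamini-Hochberg adjustment over all 12494 genes. Of all genes tested, 18.4% were called, 8.15% higher and 10.2% lower. With 10 members, 4 called is a description and no statement about the family. The 2 groups did not overlap in CPM (counts per 1000000 counts of the library, after TMM scaling of its total) for 3 of the 10 genes, against 21.8% of all genes. The median log2 fold change of the 10 was −0.06 and that of all genes was 0.00, and summed CPM of the members was 416 to 572 per library in new AML and 398 to 575 in aggressive AML. In these bulk samples fewer cells expressing a gene and less RNA per cell cannot be told apart.

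**Figure D1:**
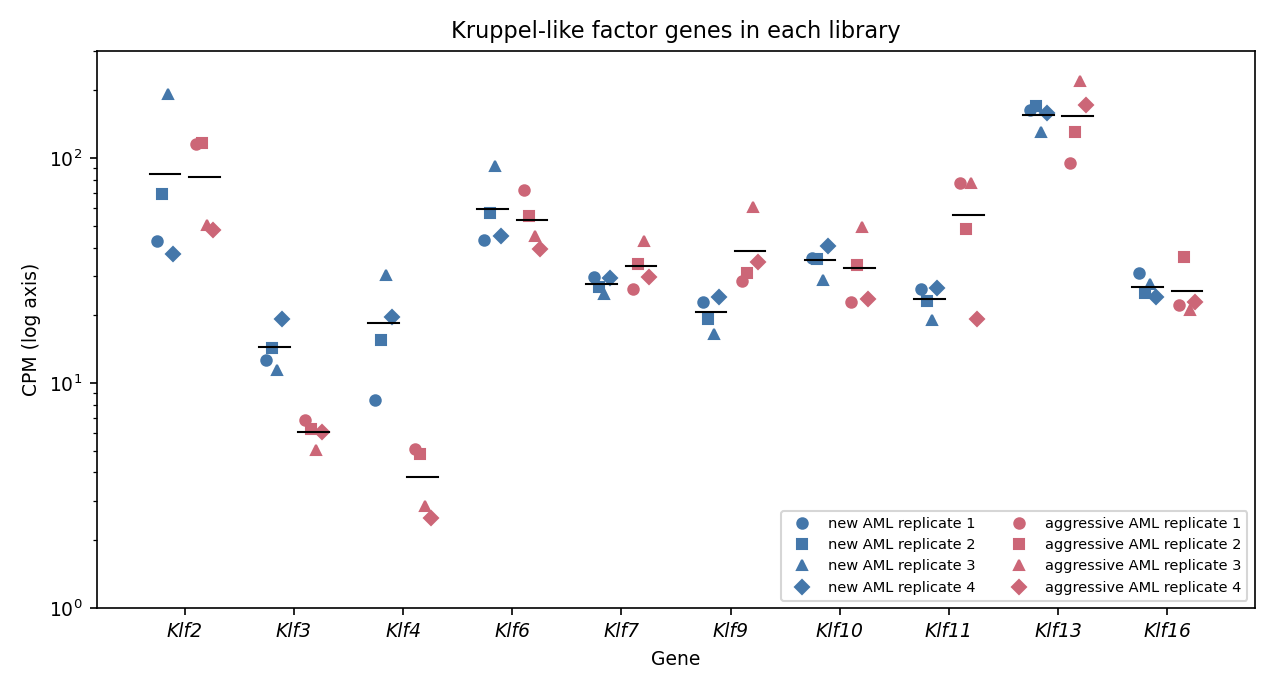
CPM of each KLF gene (log axis) in the 4 new AML libraries (blue) and the 4 aggressive AML libraries (red), with marker shape giving the replicate and a black line the group mean. *Klf3* and *Klf4* separate downward and *Klf9* upward, while 1 aggressive AML library keeps *Klf11* at 19.2 CPM, within the new AML range.

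*Klf4* (chr4:55527137-55532475, GRCm38.p6 for this and the positions that follow) fell furthest. It stood at 8.42, 15.6, 30.3 and 19.6 CPM in new AML replicates 1 to 4 and at 5.06, 4.83, 2.85 and 2.50 CPM in aggressive AML. Every aggressive AML library was below every new AML library, and the lowest of them rested on 22 reads. The means were 18.5 ± 9.16 and 3.81 ± 1.32 CPM (SD, n = 4 each), 4.83-fold lower in aggressive AML (log2 fold change −2.27, SE 0.34, 95% interval −3.00 to −1.55, edgeR adjusted p = 0.000304). A fall at least as deep was called in 86 genes, 0.688% of those tested. New AML replicate 3 was the highest, and without it the log2 fold change of *Klf4* was −1.92.

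Myeloid maturation markers moved in the same direction as *Klf4*. Of 11 neutrophil markers 8 were lower in aggressive AML, with the deepest falls in *Mmp9* (log2 fold change −3.45), *Ltf* (−3.07), *Retnlg* (−2.93) and *Mmp8* (−1.84), which encode granule or secreted proteins of neutrophils. Their summed level was 328 to 495 CPM in new AML libraries and 169 to 220.4 CPM in aggressive AML libraries. Of 6 macrophage markers tested, *Csf1r* (−1.70), the M-CSF receptor, and *Adgre1* (−0.83), which encodes F4/80, were lower, with sums of 237 to 361 and 114 to 173 CPM. *Cd14*, a monocyte marker, had a log2 fold change of 0.42 and was not called. The part of these cells in the fall of *Klf4* was not tested. The leukemia itself was present in all libraries by its markers, with *Hoxa9* at 301 ± 8.67 and 322 ± 25.3 CPM and *Mpo*, the granule peroxidase, at 2399 ± 133 and 2092 ± 554 CPM in new and aggressive AML. The leukemia markers *Ctsg*, *Elane* and *Meis1* were higher and *Itgam* (CD11b) was lower, and 4 were not called.

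*Klf3* (chr5:64803521-64832901), the CtBP-binding repressor, was the other gene that fell. Its levels were 12.6, 14.3, 11.4 and 19.3 CPM in new AML and 6.87, 6.24, 5.05 and 6.03 CPM in aggressive AML. The aggressive AML libraries were tightly grouped and all below the new AML libraries. The mean fell from 14.4 ± 3.47 to 6.05 ± 0.752 CPM, 2.37-fold (log2 fold change −1.25, SE 0.20, 95% interval −1.66 to −0.83, edgeR adjusted p = 0.000443). A fall at least as deep was called in 257 genes. The span of *Klf3* overlaps those of *Gm31684* and *Gm38457*. Whether their exons overlap, and on which strand, was not checked, so it is unknown whether reads of these and of *Klf3* can be told apart.

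*Klf9* (chr19:23141226-23168129), a glucocorticoid-induced factor of the Sin3-binding group, rose. It stood at 23.0, 19.3, 16.5 and 24.0 CPM in new AML and at 28.4, 30.9, 60.5 and 34.6 CPM in aggressive AML. Each aggressive AML library was above the highest new AML library, and replicate 3 was well above its group. Its locus overlaps *Mir1192*, so the same limit on reads holds as for *Klf3*. The mean rose from 20.7 ± 3.44 to 38.6 ± 14.8 CPM (log2 fold change 0.90, SE 0.21, 95% interval 0.46 to 1.34, edgeR adjusted p = 0.00727). Without aggressive AML replicate 3 the log2 fold change was 0.60, and *Klf9* was still called.

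*Klf11* (chr12:24651371-24662782), a TGF-beta-inducible repressor, rose, with the largest ratio of highest to lowest aggressive AML library among the members. New AML libraries held 26.1, 23.1, 19.1 and 26.3 CPM, and aggressive AML libraries held 77.8, 48.4, 77.1 and 19.2 CPM. Aggressive AML replicates 1 to 3 exceeded all new AML libraries, while replicate 4 lay near the bottom of the new AML range. The mean went from 23.6 ± 3.38 to 55.6 ± 27.9 CPM (log2 fold change 1.23, SE 0.30, 95% interval 0.59 to 1.87, edgeR adjusted p = 0.0103). Without aggressive AML replicate 4 the log2 fold change was 1.52 (adjusted p = 4.02e-05), and over all 16 alternatives the adjusted p reached at most 0.0392. That ratio was 4.05.

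**Figure D2:**
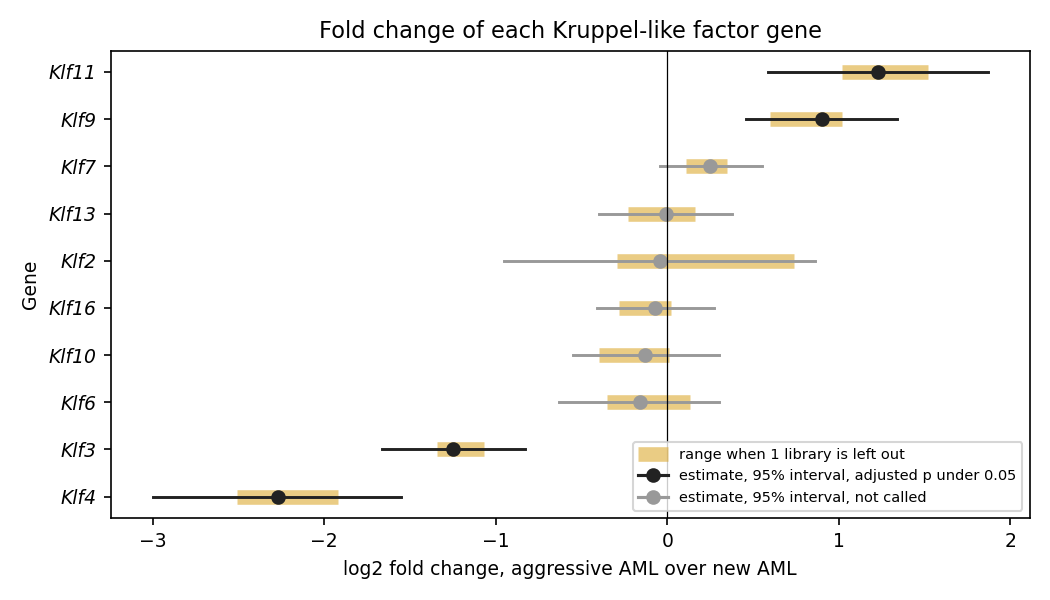
Log2 fold change of each KLF gene, aggressive AML over new AML (point), with its 95% interval from the edgeR fit (line) and the range when each of the 8 libraries is left out in turn (yellow bar). *Klf3*, *Klf4*, *Klf9* and *Klf11* stay on 1 side of 0 throughout, and *Klf2* spans −0.29 to 0.74.

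*Klf2* (chr8:72319062-72321654) did not pass the test, and its libraries were too far apart for the design to say much of it. It stood at 42.8, 69.0, 192 and 37.4 CPM in new AML and at 115, 117, 50.5 and 47.8 CPM in aggressive AML. New AML replicate 3 was the highest of all libraries and 5.13 times the lowest of its group, and the aggressive AML libraries fell into a high pair (replicates 1 and 2) and a low pair. The log2 fold change was −0.04 with a 95% interval of −0.95 to 0.86 (edgeR adjusted p = 0.957). Without new AML replicate 3 it was 0.74 (adjusted p = 0.104), and it was also above 0 without aggressive AML replicate 3 (0.13) or 4 (0.15) and with limma (0.15), so no direction is given.

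*Klf6* (chr13:5861489-5870393), an activator induced by injury and growth signals, behaved in a like way with smaller steps. Its levels were 43.0, 56.7, 91.8 and 45.1 CPM in new AML and 71.9, 55.1, 45.0 and 39.4 CPM in aggressive AML. New AML replicate 3 was again the highest library. The log2 fold change was −0.16 (95% interval −0.63 to 0.30, edgeR adjusted p = 0.647) and 0.13 without that library. *Klf7* (chr1:64029448-64122345), the last of the activators, was steadier, at 24.9 to 29.7 CPM in new AML and 26.1 to 42.6 CPM in aggressive AML (log2 fold change 0.25, 95% interval −0.04 to 0.55, edgeR adjusted p = 0.224). Its locus overlaps *Gm13748*, *Gm35880* and *Mir6899*, with the same limit on reads.

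The remaining Sin3-binding members did not pass the test either, and their intervals leave room for moderate change. *Klf13* (chr7:63886351-63938915), known as an activator of *Ccl5* in lymphocytes, was the most abundant by CPM, at 130.4 to 171 CPM in new AML and 94.9 to 220.4 CPM in aggressive AML (log2 fold change −0.01, 95% interval −0.40 to 0.38, edgeR adjusted p = 0.976). *Klf10* (chr15:38291464-38300711), a TGF-beta-inducible gene like *Klf11*, ranged over 28.8 to 40.6 and 22.8 to 49.5 CPM (log2 fold change −0.13, 95% interval −0.55 to 0.30, edgeR adjusted p = 0.703). *Klf16* (chr10:80567121-80577296) ranged over 24.1 to 30.7 and 21.0 to 36.2 CPM (log2 fold change −0.07, 95% interval −0.41 to 0.27, edgeR adjusted p = 0.804). The locus of *Klf13* overlaps *E030018B13Rik* and *Gm27252* and that of *Klf10* overlaps *Gm35248*, again with that limit. In each of these 3 genes the groups overlapped, and the aggressive AML libraries spread more widely than the new AML libraries.

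KLF genes varied between replicates, and most stood high among all genes with a mean of at least 10 CPM, a ranking not matched on level, in which genes of few reads carry more counting error. The SD of log2 values within groups was 0.14 in the median of these 9289 genes. It was above the 90th percentile for 8 of the 10 members, led by *Klf2* (0.90, percentile 99.9), *Klf11* (0.67, 99.8) and *Klf4* (0.59, 99.7). *Klf3* (0.25, 88.2) and *Klf7* (0.22, 83.6) were the least variable. The members did not deviate together: new AML replicate 3 was the highest of its group for *Klf2*, *Klf4* and *Klf6* and the lowest for *Klf3*, *Klf7*, *Klf9*, *Klf10*, *Klf11* and *Klf13*. In aggressive AML, replicate 3 was the highest for *Klf7*, *Klf9*, *Klf10* and *Klf13*, the genes for which replicate 1 was the lowest. Replicate 4 was the lowest for *Klf2*, *Klf4*, *Klf6* and *Klf11*.

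**Figure D3:**
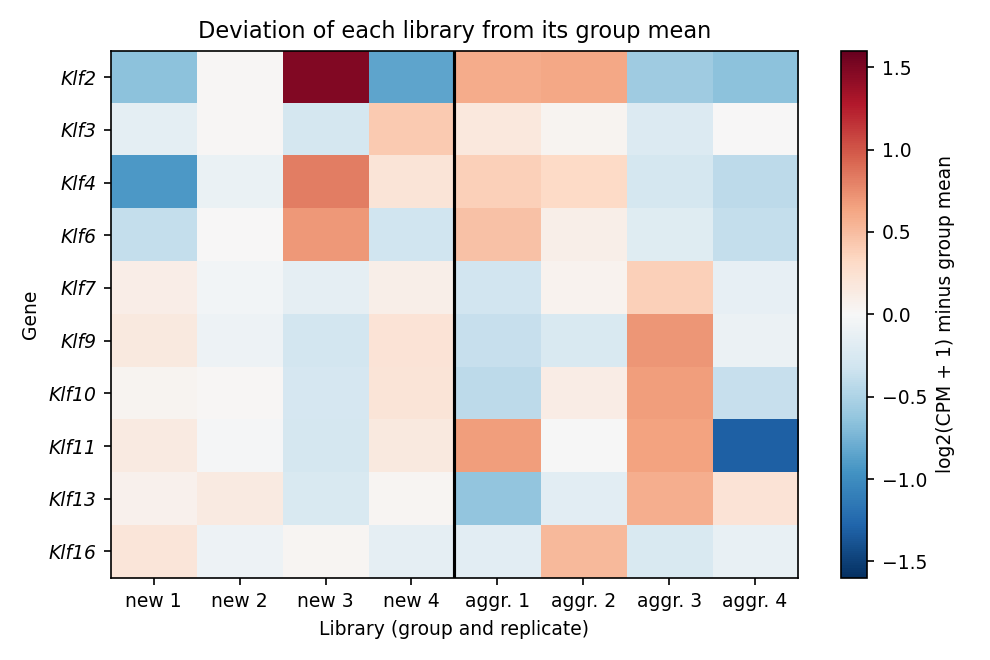
Deviation of each library from its group mean in log2(CPM + 1), by KLF gene (rows) and library (columns), with red above and blue below the mean. New AML replicate 3 is deep red for *Klf2* and paler red for *Klf4* and *Klf6*, and aggressive AML replicate 4 is deepest blue for *Klf11*.

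Immediate early genes, which are transcribed within minutes of a stimulus, were highest in replicate 3 within new AML, as was the first of these sets. *Fosb* was at 213 CPM in new AML replicate 3 against 5.13 to 18.9 CPM in the other three, *Fos* at 231 against 32.2 to 66.5 CPM, and *Dusp1*, a phosphatase gene counted here with the glucocorticoid response genes, at 74.7 against 14.4 to 17.7 CPM. Summed over 9 immediate early genes, new AML replicates 1 to 4 held 579, 689, 1373 and 476 CPM, the same order as for *Klf2*. Aggressive AML replicates 1 to 4 held 748, 852, 537 and 538 CPM, with the same high pair and low pair as *Klf2*. Of the 9, *Nr4a1* did not follow these pairs, with its highest aggressive AML level (17.4 CPM) in replicate 3 and its lowest (9.03 CPM) in replicate 1. *Klf4* followed the high and low pairs in aggressive AML, but in new AML it had 19.6 CPM in replicate 4, where the sum was lowest. With 4 libraries in each group no correlation was computed, and the part of these genes in the KLF values was not tested. Between the groups, 1 of the 9 was called, *Nr4a1*, an orphan nuclear receptor (log2 fold change 0.91, edgeR adjusted p = 0.00529), and without new AML replicate 3 the number called was 3.

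**Figure D4:**
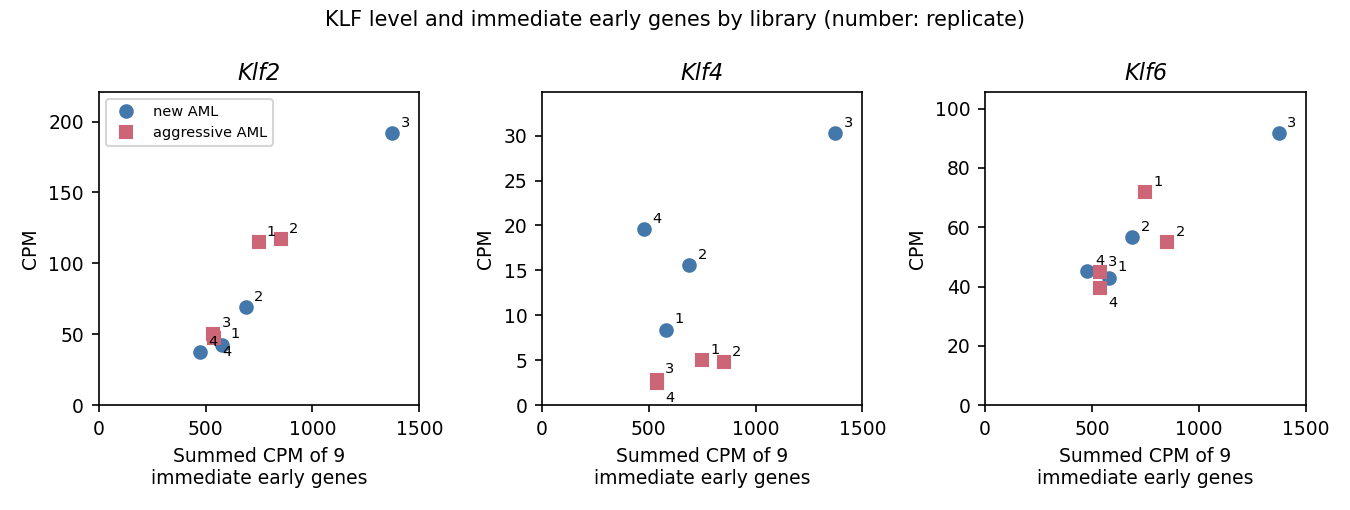
CPM of *Klf2*, *Klf4* and *Klf6* (one panel each) against the summed CPM of 9 immediate early genes in new AML (blue circles) and aggressive AML (red squares), numbered by replicate. New AML replicate 3 lies at 1373 CPM and is the highest library in all panels, and *Klf4* in aggressive AML stays at 5.06 CPM or less at sums of 537 to 852 CPM.

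Levels of different genes were compared as CPM per kilobase of the longest annotated transcript. With the longest transcript *Klf2* had the highest level in both groups (46.2 ± 39.2 and 44.8 ± 21.0 CPM per kilobase in new and aggressive AML), followed by *Klf13* (24.3 ± 2.76 and 24.2 ± 8.45). *Klf3* was the lowest in both (2.76 ± 0.665 and 1.16 ± 0.144). Below *Klf13*, the order in new AML was *Klf6*, *Klf10*, *Klf16*, *Klf4*, *Klf11*, *Klf9* and *Klf7*, and the ranges of all neighbours overlapped. In aggressive AML *Klf11* came next after *Klf13* (13.6 ± 6.82) and *Klf4* next to last (1.26 ± 0.436), and of the neighbours only *Klf9* and *Klf7*, and *Klf7* and *Klf4*, did not overlap. Which transcripts were used is unknown, and the order depends on that choice. With the median transcript length of each gene, the means over 8 libraries put *Klf13* (202 CPM per kilobase), *Klf11* (59.2) and *Klf6* (50.2) above *Klf2* (45.5), and *Klf16* (9.8) below *Klf3* (9.96).

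**Figure D5:**
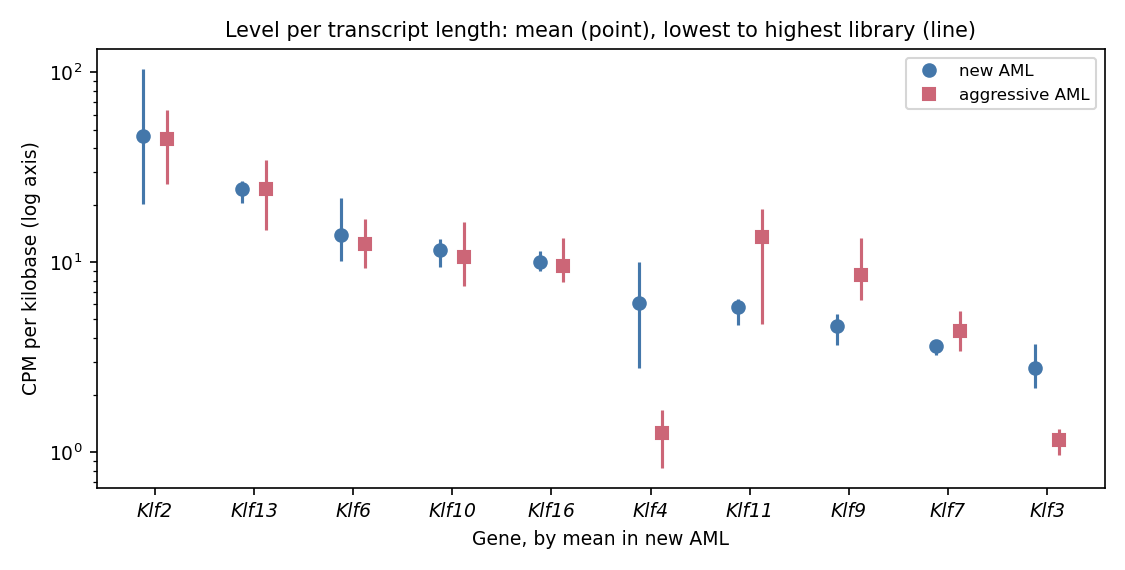
CPM per kilobase of the longest transcript (log axis) for each KLF gene, as group mean (point) and lowest to highest library (line), ordered by the new AML mean. With this choice of length *Klf2* and *Klf13* lead in both groups (with the median length *Klf13*, *Klf11* and *Klf6* exceed *Klf2*), and *Klf4* and *Klf3* lie lowest in aggressive AML at 1.26 and 1.16 CPM per kilobase.

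The related genes in the table did not change detectably. Of 7 other KLF and SP factors tested (*Klf1*, *Klf5*, *Klf8*, *Sp1*, *Sp2*, *Sp3*, *Sp4*), 0 were called by edgeR, DESeq2 or limma, and 0 had an unadjusted p under 0.05. The ubiquitous GC box factors *Sp1* and *Sp3* stood at 194 ± 20.02 and 199.8 ± 14.7 CPM in new AML and at 182 ± 15.2 and 186 ± 10.3 CPM in aggressive AML. *Klf12*, *Klf14*, *Klf15*, *Klf17* and *Sp5* to *Sp9* were not analysed here. Of 10 cofactors that KLFs recruit (the CtBP, Sin3 and histone deacetylase subunits and acetyltransferases), 0 were called by edgeR and by limma, 1 by DESeq2, and 2 had an unadjusted p under 0.05. Of 5 ubiquitin ligase genes known to act on KLF proteins, 0 were called by edgeR, DESeq2 or limma, and 1 had an unadjusted p under 0.05.

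Of the genes in pathways that act on KLF genes, 28.6% (MEK5-ERK5-MEF2) and 11.1% (TGF-beta and SMAD) were called, against 18.4% of all genes tested. Lists this short allow no statement about a pathway. Of 7 genes of the MEK5-ERK5-MEF2 cascade, which induces *Klf2* and *Klf4*, *Mef2c* was higher and *Mapk7* was lower. *Mef2c*, a MEF2 factor, went from 318 ± 18.3 to 490.4 ± 98.2 CPM (log2 fold change 0.62, SE 0.11, edgeR adjusted p = 0.00109), with no overlap between groups. *Mapk7*, which encodes ERK5, went from 37.8 ± 2.67 to 30.02 ± 0.964 CPM (log2 fold change −0.33, SE 0.10, edgeR adjusted p = 0.0286), a call lost without new AML replicate 2 or 4 or aggressive AML replicate 1, 2 or 4 (adjusted p up to 0.0905). Of 9 TGF-beta and SMAD genes, the pathway that induces *Klf10* and *Klf11*, only *Smad3*, a receptor-activated SMAD, was called, at 13.1 ± 1.41 and 7.93 ± 0.862 CPM (log2 fold change −0.72, SE 0.16, edgeR adjusted p = 0.00576).

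Of 7 glucocorticoid response genes tested, the pathway that induces *Klf9*, 2 were called (28.6%, against 18.4% of all genes tested). Both were lower in aggressive AML while *Klf9* was higher. *Nr3c1*, the glucocorticoid receptor, went from 120.3 ± 12.7 to 91.9 ± 10.5 CPM (log2 fold change −0.39, edgeR adjusted p = 0.0126). Its target *Fkbp5*, a chaperone of the receptor, went from 167 ± 18.2 to 119.9 ± 23.6 CPM (log2 fold change −0.47, edgeR adjusted p = 0.0143), a call lost without new AML replicate 2 (adjusted p = 0.0512). *Errfi1* was not analysed here.

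Of the known KLF target genes reported here, *Itgb7* and *Thbd* were lower in aggressive AML, and *Lgals3* and *Cdkn1a* were not called (log2 fold changes of 0.17 and 0.12). *Itgb7*, an integrin subunit that KLF2 controls in lymphocytes, went from 296 ± 31.3 to 215 ± 23.5 CPM (log2 fold change −0.46, edgeR adjusted p = 0.00309). *Thbd*, the anticoagulant receptor thrombomodulin, went from 131 ± 15.5 to 97.6 ± 15.3 CPM (log2 fold change −0.42, edgeR adjusted p = 0.0159), a call lost without new AML replicate 2 or 4 or aggressive AML replicate 2 (adjusted p up to 0.0587). *S1pr1*, *Eng* and *Ccl5* were not analysed here.

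The genes most like each called member across the 8 libraries were found by the root mean square (RMS) difference between centred log2(CPM + 1) profiles, among 9288 genes. Each profile was centred on its mean over all 8 libraries, so the difference between groups is part of the likeness. That a gene found this way changes in the direction of its member follows from the search and is no separate result. *Klf9* was closest to *Runx2*, the osteoblast and leukemia-associated runt factor (RMS 0.14), which rose from 98.1 ± 9.53 to 174 ± 49.6 CPM, and to *Jmjd1c*, a histone demethylase family gene (RMS 0.17). *Klf3* was closest to *Cdc42bpb*, a CDC42-binding kinase, and *Rassf4*, a Ras association domain gene (RMS 0.15 for both). *Klf4* was closest to the interferon-induced membrane protein gene *Ifitm3*, at 52.2 ± 21.5 and 11.1 ± 1.33 CPM, and to *Igfbp4*, a growth factor binding protein gene (RMS 0.38 for both). For *Klf11* the closest were *Zc3h12c* (RMS 0.40) and *Tmem9* (RMS 0.45).

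Markers of other cells that a GFP sort could still hold were looked at by list. Of 6 erythroid markers tested *Hba-a1* was lower by edgeR and was called by neither DESeq2 nor limma, with summed levels of 27.1 to 98.0 CPM in new AML and 10.6 to 52.8 CPM in aggressive AML. Of the T cell markers *Cd3d*, *Cd3e*, *Cd3g*, *Cd4* and *Cd8a* were not analysed here, and *Bcl11b* was higher by edgeR (5.32 ± 1.07 and 12.2 ± 6.63 CPM) and was called by neither DESeq2 nor limma. Of the B cell markers *Cd22* was lower (3.81 ± 0.505 and 0.117 ± 0.135 CPM), while *Cd79b*, the most abundant of them, was not called (36.3 ± 1.75 and 32.1 ± 1.53 CPM). Of the NK cell markers *Nkg7* was higher (14.9 ± 5.00 and 24.1 ± 4.30 CPM), and *Ncr1*, *Klrb1c*, *Eomes* and *Gzma* were not analysed here. The 1 megakaryocyte marker tested, *Itga2b*, was not called. Library totals were 7805544 to 9697777 counts, so 1 read was worth 0.103 to 0.130 CPM and the KLF genes rested on 22 to 1721 reads in each library.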

How the data were processed

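RNA of GFP+ leukemia cells from bone marrow was sequenced in 4 new AML and 4 aggressive AML samples. According to the methods of the study, the authors aligned paired-end reads to mm10 with HISAT2 on Galaxy, counted them per gene with Rsubread and dropped genes under 1 CPM. The gene annotation and strand setting are not given in the sources used here. The deposited values are whole-number counts per gene, although labelled as CPM, with a different total in each library (7805544 to 9697777), and were treated as counts. CPM was computed here from library totals scaled by edgeR's TMM factors. Of 12823 rows, 12494 reached 1 CPM in 4 or more libraries and were tested, and 329 were left out. The main test was edgeR 4.0.16 (R 4.3.3), with TMM factors, a quasi-likelihood fit on group alone, a two-sided test and Benjamini-Hochberg adjustment with a threshold of 0.05. DESeq2 1.42.0, limma 3.58.1 on log2(CPM + 1) or log2(CPM + 0.5), other scalings, filters of no minimum or 10 CPM, a replicate block, and leaving out each library were alternatives. The tests were tried on simulated data. All 10 KLF genes are named. From each list, every called gene is named where at most 5 were called, otherwise the 4 with the largest fold change, together with genes of a list not in hand, and for each called member the 2 genes with the most similar profile. *Cd14*, *Hoxa9*, *Mpo*, *Sp1*, *Sp3*, *Fos*, *Fosb*, *Dusp1*, *Lgals3*, *Cdkn1a*, *Cd79b* and *Itga2b* and the Y-linked genes were named outside this rule after their values were seen. 1 gene of the list of KLF targets is not reported here, so no count is given for that list. Members and lists were chosen with earlier results of these data known. No library was a duplicate of another. Gene positions, transcripts and promoters came from GENCODE and RefSeq tables of GRCm38.p6, and differences between 2 libraries of a group include counting error, which at 22 reads is large.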

Additional observations from a re-analysis of the deposited data

Results flagged for a closer look

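Values are given for genes in which 1 library stood far from the other three of its group, by Dixon's ratio. There were 12 such cases among 138 groups of 4 libraries, and chance gives about 1 in 20. Among the 20 groups of KLF members there was 1, *Klf16*, at 36.2 CPM in aggressive AML replicate 2 against 21.0 to 23.0 CPM in the others.

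In new AML replicate 3, *Fosb* was at 213 CPM (others 5.13 to 18.9), *Dusp1* at 74.7 CPM (14.4 to 17.7) and *Atf3* at 2.45 CPM (0.103 to 0.357), while *Tgfbr2* was at 20.5 CPM (29.5 to 29.9). In new AML replicate 1, *Sin3b* was at 116 CPM (125 to 126). In new AML replicate 4, *Wwp1* was at 25.9 CPM (22.6 to 23.1) and *Ddit4* at 23.7 CPM (14.2 to 15.0). In aggressive AML, *Ddit4* was at 7.35 CPM in replicate 1 (16.7 to 17.9) and *Klf1* at 1.18 CPM in replicate 2 (1.55 to 1.59). In aggressive AML replicate 3, the library highest for *Klf9*, *Mef2c* was at 637 CPM (429.7 to 454) and *Map3k3* at 135 CPM (108 to 111).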

How the results depend on the processing

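*Klf3*, *Klf4*, *Klf9* and *Klf11* were called in the same direction under every alternative in which they were tested, and 4 members were called in each, except 3 with a minimum of 10 CPM, where *Klf4* was not tested. The largest adjusted p over the alternatives was 0.00193 for *Klf3*, 0.00146 for *Klf4*, 0.0255 for *Klf9* and 0.0392 for *Klf11*. Between 1534 and 2538 genes were called in all, the lowest without new AML replicate 2 and the highest with DESeq2. The signs of members near 0 were not stable, and the cause was not tested. Leaving out 1 library took the log2 fold change of *Klf2* from −0.29 to 0.74, of *Klf6* from −0.35 to 0.13, of *Klf10* from −0.40 to 0.01, of *Klf13* from −0.23 to 0.16 and of *Klf16* from −0.28 to 0.02. With limma *Klf2* was at 0.15 with either pseudocount. With the median in place of the longest transcript length, the mean levels over 8 libraries in CPM per kilobase were 9.96 for *Klf3*, 13 for *Klf4*, 50.2 for *Klf6*, 20.6 for *Klf7*, 10.6 for *Klf9*, 25.2 for *Klf10*, 59.2 for *Klf11* and 202 for *Klf13*, since the lengths are shorter, while *Klf2* (45.5) and *Klf16* (9.8), with 1 transcript each, did not move.

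Whether the replicate numbers pair the samples cannot be told from these values. The correlations of deviations between libraries of the same number were 0.0967, −0.0399, −0.0654 and 0.204. Between libraries of different numbers they were −0.179 to 0.147. With the replicate block 2367 genes and 4 members were called, and *Klf2* had a log2 fold change of 0.19.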
